A study of Homo sapiens with 12 samples.

Results

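ATF2, ATF3, ATF7, BATF, BATF2, BATF3 and JDP2 are basic leucine zipper (bZIP) genes whose proteins pair with FOS or JUN proteins, or with each other, within the AP-1 family. The 7 genes were taken by name, and each was given a window from 50 kb before to 50 kb after the gene body in the GENCODE release 44 annotation (hg38). Any open region that touched a window was a member region. This gave 148 of the 355394 open regions found in the series, of which 25 lay in 2 windows because JDP2 neighbours BATF and ATF3 neighbours BATF3. The 100 kb stretch around FOS, which lies on the same chromosome as JDP2 and BATF, overlapped none of these windows.

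bZIP proteins bind DNA as dimers, and the partner sets the sequence they prefer. FOS and JUN dimers favour TGACTCA and TGAGTCA, which the looser AP-1 consensus TGANTCA used here includes. By contrast, ATF2 and ATF7, which pair with JUN, favour the cyclic AMP response element (CRE) TGACGTCA. ATF3 and JDP2 are small members without the activation domain of ATF2 and are best known as repressors at the same sites, and BATF, BATF2 and BATF3 lack such a domain too and act with JUN proteins and, in immune cells, with IRF4 and IRF8. C/EBP proteins, the family of CEBPA, are bZIP factors as well and can form composite sites with ATF or AP-1 proteins.

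The question behind the samples was how the p42 and p30 isoforms of CEBPA shape open chromatin before and after stress of the endoplasmic reticulum. KO-52, an acute myeloid leukaemia cell line with biallelic CEBPA mutations, was transduced with p42 (the full-length isoform) or p30 (the short isoform that leukaemia mutations favour) or carried an empty vector (EV), and every group therefore had the mutant endogenous alleles. Each line was given DMSO or tunicamycin (Tm), an inhibitor of protein glycosylation, at 2 µg/mL for 8 h, and ATAC-seq, in which the Tn5 transposase cuts accessible DNA, was run on 50000 nuclei for each of 2 biological replicates. For transduced KO-52 cells the study's methods describe isoforms fused to ERT2 in cells sorted by GFP, with 4-hydroxytamoxifen, which moves such fusions to the nucleus, given to EV controls too.

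The replicates of a condition had been pooled before peaks were called, so there was 1 peak list for each of 6 conditions, no replicate spread, and no test between conditions. The lists held 187704 (EV, DMSO) to 254239 peaks (p42, DMSO), and their depth, estimated from the peak statistics, ran from 22250000 tags, that is aligned reads or fragments (EV, DMSO), to 29980000 (p42, DMSO). A deeper list lets weaker regions pass the threshold, so a region without a peak was not called at that depth and need not be closed. Strength is given in 2 ways: as the percentile of a peak by −log10 q within its own list, which is relative to the local background, and as the number of tags stacked at the summit, which fell between 4 and 119 over all peaks. Of 8 blood and myeloid marker genes, PTPRC, SPI1 and CD33 among them, all 8 had a promoter peak in all 6 lists. Of 8 markers of other tissues 4 had none in any list and 2 had one in all 6.

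Consensus sequences, 5 in all, were searched on both strands within 100 bases of the summit of every region. They were TGANTCA (AP-1), TGACGTCA (CRE), TTGCNNCAA (CEBP), TGATGNAAT (CEBP with ATF) and TGTTGCAA (CEBP with AP-1). A TTGCNNCAA match with AA in its middle also holds TGTTGCAA on the other strand and was then counted for both. The AP-1 consensus was found in 23 of the 148 member regions (15.5%, 95% Wilson interval 10.6 to 22.2%) and in 12.9% of all regions. The CRE was found in 1 member region (0.676%) and in 0.217% of all regions, CEBP in 2 (1.35%, all 2.01%), CEBP with ATF in 4 (2.7%, all 1.51%) and CEBP with AP-1 in 3 (2.03%, all 1.17%). The searched windows shown next are 201 bases each on the forward strand of hg38, named by gene and distance of the summit before or beyond the gene start, with matches in capitals. They are shown because each holds a match and its peak differed between the p42 and other lists or, at ATF3, was strong in all 6, or, 36.2 kb beyond the BATF start, changed most in rank with tunicamycin in that window, and they were picked for display after their values were seen.
ATF3, 6.3 kb before the start, chr1:212558945-212559145: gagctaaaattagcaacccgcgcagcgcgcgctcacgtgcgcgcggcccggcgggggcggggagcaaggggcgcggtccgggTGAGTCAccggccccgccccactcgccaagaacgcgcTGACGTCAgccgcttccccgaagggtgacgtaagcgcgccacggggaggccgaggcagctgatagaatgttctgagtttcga
ATF3, 1.9 kb beyond the start, chr1:212567170-212567370: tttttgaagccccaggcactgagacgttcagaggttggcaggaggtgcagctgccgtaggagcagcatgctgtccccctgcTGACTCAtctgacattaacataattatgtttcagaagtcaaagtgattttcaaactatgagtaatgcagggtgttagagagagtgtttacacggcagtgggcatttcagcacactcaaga
ATF2, 13.6 kb beyond the start, chr2:175154640-175154840: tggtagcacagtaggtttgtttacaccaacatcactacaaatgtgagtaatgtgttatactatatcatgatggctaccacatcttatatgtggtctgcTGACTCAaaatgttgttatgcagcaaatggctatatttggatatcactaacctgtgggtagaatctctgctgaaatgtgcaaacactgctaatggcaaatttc
ATF7, 50.7 kb beyond the start, chr12:53575618-53575818: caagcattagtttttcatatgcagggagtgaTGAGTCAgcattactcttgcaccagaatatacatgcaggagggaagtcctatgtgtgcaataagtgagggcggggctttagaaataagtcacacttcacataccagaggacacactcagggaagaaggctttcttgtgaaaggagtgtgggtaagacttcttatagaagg
BATF, 36.2 kb beyond the start, chr14:75558541-75558741: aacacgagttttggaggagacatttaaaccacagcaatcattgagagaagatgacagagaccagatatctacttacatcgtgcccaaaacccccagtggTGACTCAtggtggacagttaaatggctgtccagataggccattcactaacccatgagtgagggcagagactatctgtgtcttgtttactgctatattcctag
BATF, 37.6 kb beyond the start, chr14:75559931-75560131: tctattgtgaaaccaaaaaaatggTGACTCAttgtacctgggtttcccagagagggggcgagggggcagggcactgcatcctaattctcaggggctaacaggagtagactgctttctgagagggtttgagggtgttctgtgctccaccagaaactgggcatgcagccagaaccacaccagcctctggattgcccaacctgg
BATF, 39.8 kb beyond the start, chr14:75562174-75562374: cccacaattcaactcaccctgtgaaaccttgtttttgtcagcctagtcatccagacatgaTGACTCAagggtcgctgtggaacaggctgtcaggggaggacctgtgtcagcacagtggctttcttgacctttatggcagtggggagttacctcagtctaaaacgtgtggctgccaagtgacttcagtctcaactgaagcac
BATF2, 26.1 kb beyond the start, chr11:64970809-64971009: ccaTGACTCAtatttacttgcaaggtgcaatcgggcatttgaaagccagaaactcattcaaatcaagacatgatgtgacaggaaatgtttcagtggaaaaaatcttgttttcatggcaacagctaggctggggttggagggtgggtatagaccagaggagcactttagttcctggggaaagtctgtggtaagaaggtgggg

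These windows hold no exon of a protein-coding gene. The first, 6.3 kb before the start of ATF3, lies in an exon of a long non-coding RNA gene and holds TGAGTCA with TGACGTCA 37 bases further on. The ATF3 +1.9 kb, ATF2 +13.6 kb and ATF7 +50.7 kb windows lie in introns of their gene, the last over a processed pseudogene, where reads may map less surely. BATF2 +26.1 kb lies in an intron of MAJIN, and the others lie between genes.

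All 7 members had an open promoter, a region within 1000 bp of an annotated start site, in all 6 lists. The plot of promoter percentiles shows ATF2 and ATF7, which are transcribed broadly, at the top of every list and the remaining members lower.

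The ATF2 promoter region (chr2:175167521-175168825) had 54, 56 and 50 tags at its summit in p42, p30 and EV cells in DMSO and 52, 57 and 54 after tunicamycin. That of ATF7 (chr12:53625925-53626990) had 56, 48 and 47 tags in DMSO and 46, 45 and 44 after tunicamycin. In both, the 6 values were close to each other. ATF3, a stress-induced repressor, had its strongest promoter region at an inner start 43.4 kb from the annotated gene start, and that region (chr1:212608096-212609894) had 41, 32 and 30 tags in DMSO and 37, 41 and 41 after tunicamycin. In DMSO its percentile was 88.1, 80.9 and 80.6 in the same order, and after tunicamycin 85.8, 90.9 and 90.5, so it stood higher after treatment in p30 and EV cells and not in p42 cells. JDP2, the close relative of ATF3, had 31, 27 and 23 tags at its promoter (chr14:75427205-75428623) in DMSO and 30, 21 and 24 after tunicamycin.

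BATF2 was the member whose strongest promoter region (chr11:64996751-64997071) spread over the most percentile points. It had 24, 15 and 12 tags in DMSO, again for p42, p30 and EV cells, and 18, 10 and 11 after tunicamycin, so both p42 lists stood above the other 4. Scaled to 10000000 tags of the list, these were 8.01, 5.65 and 5.39 in DMSO and 7.08, 4.33 and 4.38 after tunicamycin. The BATF promoter region (chr14:75522179-75522909) had 22, 23 and 22 tags in DMSO and 26, 22 and 29 after tunicamycin. A smaller region just before it (chr14:75521853-75522060) had 12 tags in p42 and 9 in EV cells, no peak in p30 cells in DMSO, and 10, 11 and 13 tags after tunicamycin. It was the 1 promoter region of a member that, in DMSO, was called for p42 but not for p30 cells, and no member had the reverse. BATF3, which dendritic cells use, had 34 tags in each line in DMSO (chr1:212699102-212700042) and 32, 24 and 34 after tunicamycin. Scaled to depth in the same way, these were 11.3, 12.8 and 15.3 and then 12.6, 10.4 and 13.5.

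With 95% exact Poisson intervals, which cover the counting of tags only, in none of the 7 comparisons did a member region with a peak in both lists have intervals, scaled to depth, that did not overlap. This concerned 78 regions for p42 against p30 in DMSO, 80 for p42 against EV, 76 for p30 against EV, 75 for p42 against p30 after tunicamycin, and 87, 74 and 80 for tunicamycin against DMSO in p42, p30 and EV cells. Over all regions 0.238, 0.409, 0.00339, 0.159, 0.00590, 0.0124 and 0.00559% had intervals apart, in the same order. Overlap of intervals does not show that a pair of values is equal.

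In DMSO, 113 member regions (76.4%) had a peak in the p42 list, 88 (59.5%) in the p30 list and 92 (62.2%) in the EV list, where 69.3, 56.1 and 50.4% of all regions did. For p42 against p30 cells in DMSO, the presence of a peak leaned to p42. A peak in exactly 1 of both lists was found in 45 member regions, 35 in p42 and 10 in p30 cells, so that 77.8% were of p42 (95% Wilson interval 63.7 to 87.5%). Over all regions the share was 68.0%, which lies inside that interval. With equal list sizes the member share was 66.7% and that of all regions 51.1%. The 35 and the 10 regions were mostly weak, with median percentiles of 33.9 and 10.8. Split by motif, the 23 regions with the AP-1 consensus gave 3 of p42 and 6 of p30, 33.3% of p42 (12.1 to 64.6%), where all regions with it gave 56.7%. The 125 without it gave 32 and 4, and this split was made after the patterns had been seen. By window, p42 and p30 cells had 13 and 2 such regions at JDP2, 10 and 3 at BATF, 9 and 3 at ATF7, 4 and 0 at ATF3, 4 and 1 at BATF3, 2 and 2 at ATF2, and 1 and 1 at BATF2, where a region in a pair of windows counts in each. The counts were furthest apart at JDP2, with 86.7% of p42 (62.1 to 96.3%). They were even at ATF2 (15 to 85%) and BATF2 (9.45 to 90.5%). The interval of every window holds the 68.0% of all regions, and the windows were not tested against each other. Of the 78 regions in both lists, 51 ranked higher in p42 cells (65.4%, all regions 61.8%). The median difference was 3.03 percentile points against 3.16 over all regions, and with equal list sizes 1.26 against -0.499. A rank at least 20 points higher in p42 cells was found in 13 of the 78 regions (16.7%) and one at least 20 points lower in 3 (3.85%), where all regions gave 18.2 and 8.23%.

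**Figure D1:**
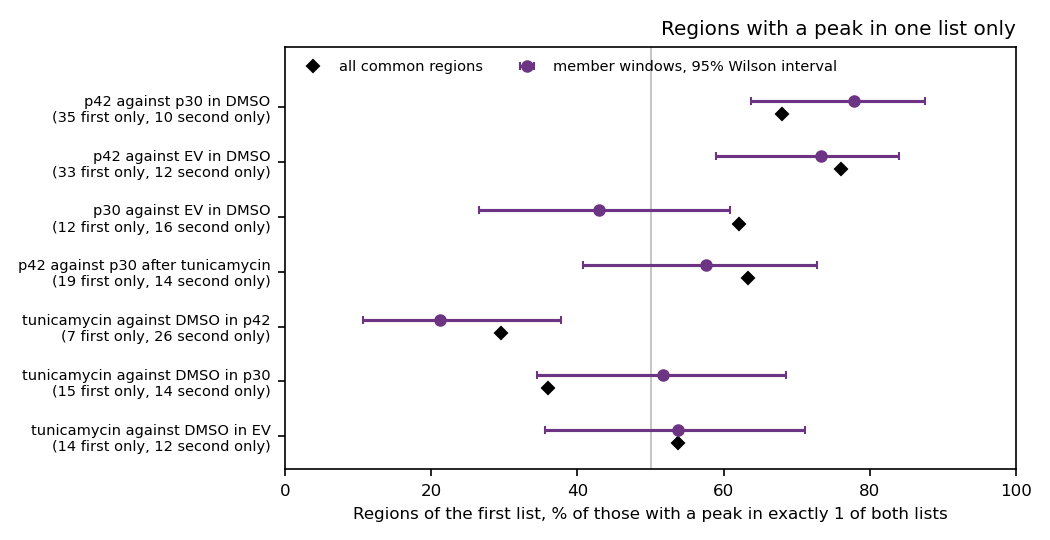
For 7 comparisons (y axis), the share of regions with a peak in exactly 1 of both lists that are of the first list (x axis, %), for the member windows (circles with 95% Wilson intervals) and for all regions (diamonds). The diamond lies inside the interval in every comparison except p30 against EV in DMSO, 62.1 against an upper bound of 60.9.

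The BATF window had peaks that turned both ways between the lines. Beyond the gene, 36.2 to 44.1 kb from its start, 4 regions between genes hold TGACTCA or TGATTCA within 100 bases of the summit. The region 37.6 kb from the start (chr14:75559838-75560422) had 17 tags in both p42 lists, 6 in p30 cells in DMSO, 8 in EV cells after tunicamycin, and no peak in the other lists. It was the member region at BATF with the largest fall in rank from p42 to p30 cells in DMSO, from percentile 68.3 to 5.41. The next AP-1 region, 39.8 kb from the start (chr14:75562159-75562360), showed the opposite order. It had no peak in either p42 list, 13 and 11 tags in p30 and EV cells in DMSO, and 11 and 14 after tunicamycin. The AP-1 match lies 40 bases before its summit. Nearer to the gene, 36.2 kb from the start (chr14:75558503-75558725), the match sits at the summit, and tags were 13, 9 and 12 in DMSO and 7, 9 and 7 after tunicamycin. This was the region of the BATF window with the largest mean change of rank with tunicamycin, down in all 3 lines, from 55.2 to 13.7 in p42, 40.2 to 38.8 in p30 and 58.9 to 13.6 in EV cells. A region without an AP-1 match, 48.6 kb from the start (chr14:75570764-75571158), had 17 and 16 tags in the p42 lists, 5 in p30 cells after tunicamycin, and no peak elsewhere. Neighbouring regions thus differed in opposite directions between the p42 and p30 lists. Before the gene, a region at 12.5 kb (chr14:75509943-75510036) had 8 and 6 tags in the p42 lists and no peak elsewhere, and one at 7.25 kb (chr14:75514968-75515901) had 28, 32 and 24 tags in DMSO and 30, 19 and 24 after tunicamycin. Inside the gene, the intron region 20.5 kb from the start (chr14:75542348-75543148) was strong in all 6 lists, with 39, 32 and 35 tags in DMSO and 28, 32 and 33 after tunicamycin.

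**Figure D2:**
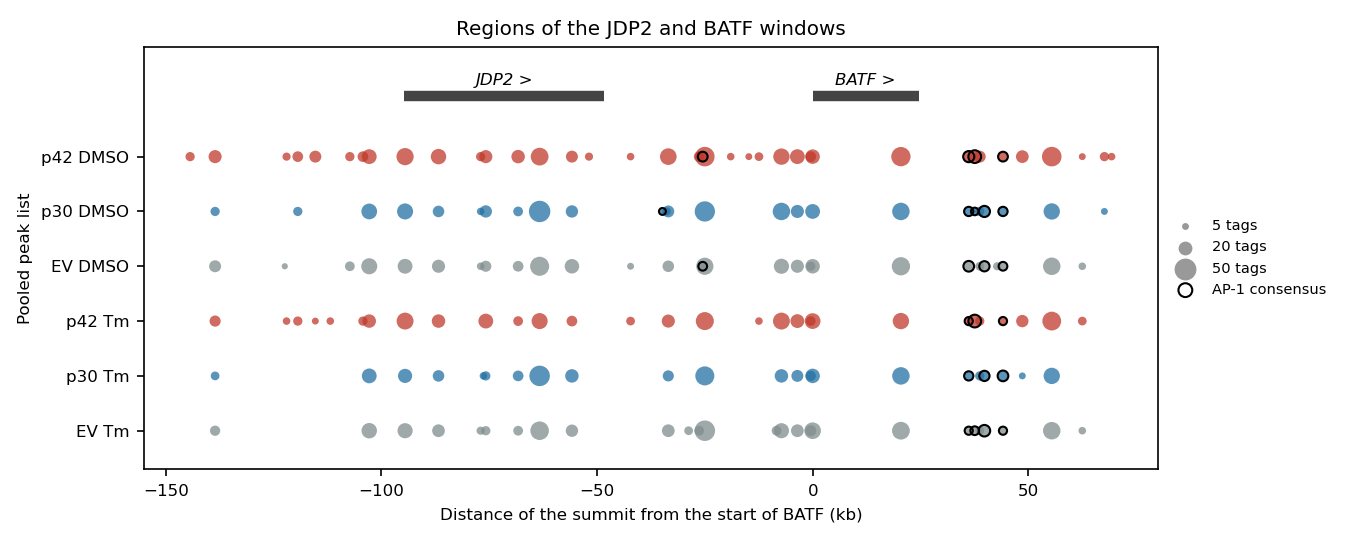
Regions of the JDP2 and BATF windows by distance of the summit from the BATF start (x axis, kb) in each pooled list (y axis), with circle area by summit tags and a black ring for the AP-1 consensus. Of the 6 ringed regions 4 lie 36.2 to 44.1 kb beyond the BATF start, where the p42 lists show 17 tags at 37.6 kb and no circle at 39.8 kb.

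JDP2 had 35 regions in its window, of which 13 were open in all 6 lists. Before the gene, 3 regions had peaks in both p42 lists and in no other list. The strongest, 20.6 kb before the start (chr14:75406987-75407236), had 15 tags in DMSO and 5 after tunicamycin, percentiles 73 and 8.72. The weakest (chr14:75400368-75400480) had 7 and 6 tags. In the gene, the intron region 26.4 kb from the start (chr14:75453800-75454186) fell from percentile 73.4 in p42 to 28.2 in p30 cells in DMSO, with 19, 10 and 12 tags in p42, p30 and EV cells, and had 10, 12 and 10 tags after tunicamycin. The intron region 31.4 kb from the start (chr14:75458843-75459629) went the other way, with 33, 48 and 38 tags in DMSO and 27, 44 and 36 after tunicamycin. Both p42 values were the lowest of their treatment there. The region 43.8 kb before the start (chr14:75383689-75384021) had 18, 9 and 15 tags in DMSO and 13, 8 and 11 after tunicamycin, with the lowest value of each treatment in p30 cells. Between JDP2 and BATF, a region 33.5 kb before the BATF start (chr14:75488870-75489058) had 29, 15 and 14 tags in DMSO and 18, 13 and 17 after tunicamycin, and the strong region 25 kb before it (chr14:75497132-75497567) had 40, 43 and 31 tags and then 34, 38 and 44.

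At ATF3 and its neighbour BATF3 most regions were open throughout. Of 24 regions in the ATF3 window 16 were open in all 6 lists, as were 46.6% of all member regions and 32.2% of all regions. The region with AP-1 and CRE matches 6.3 kb before the gene (chr1:212558165-212559478) had 34, 32 and 28 tags in DMSO and 36, 31 and 32 after tunicamycin. The intron region with TGACTCA 1.9 kb from the start (chr1:212566544-212567480) had 37, 36 and 32 tags in DMSO and 26, 31 and 41 after tunicamycin. Scaled to 10000000 tags of the list these were 12.3, 13.6 and 14.4 and then 10.2, 13.4 and 16.3, lowest in p42 cells under each treatment. By percentile p42 cells were highest in DMSO, with 98.4, 97.5 and 97.5, and lowest after tunicamycin, with 89.4, 94.5 and 99.6. Over all regions in DMSO the median log2 ratio of scaled tags was also below none, -0.17 for p42 against EV and -0.04 for p42 against p30. The strongest region outside promoters, 64.9 kb from the start and beyond the gene (chr1:212630108-212630667), had 50, 47 and 42 tags and then 52, 43 and 42. It holds TGATTCA near the edge of the searched window. The largest difference between p42 and p30 cells was in an intron 30.7 kb from the start (chr1:212595945-212596101), with 18, 8 and 10 tags in DMSO, percentiles 78.8, 30.3 and 47.5, and 11, 13 and 7 tags after tunicamycin. The order of p42 and p30 cells there was thus not the same before and after treatment. A further promoter region inside the gene, 48.9 kb from the start (chr1:212614147-212614265), had 9 and 10 tags in p42 and p30 cells and no peak in EV cells in DMSO, and 10, 10 and 8 tags after tunicamycin. The region at 30.7 kb holds the CEBP with ATF consensus, read as ATTCCATCA on the forward strand.

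**Figure D3:**
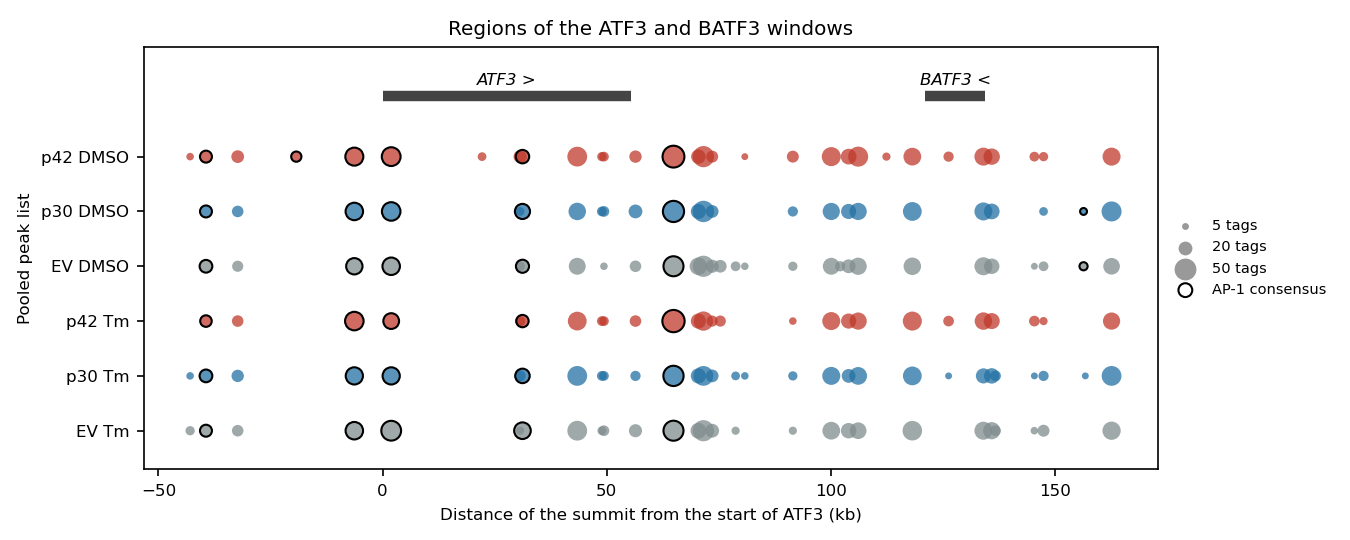
Regions of the ATF3 and BATF3 windows by distance of the summit from the ATF3 start (x axis, kb) in each pooled list (y axis), with circle area by summit tags and a black ring for the AP-1 consensus. The ringed regions 6.3 kb before the start and 1.9 and 64.9 kb beyond it are large in all 6 lists.

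BATF3 had 21 regions, 9 of them shared with ATF3. In DMSO, 0 regions were called for p30 but not for EV cells and 5 had the reverse, a share of 0% (0 to 43.4%), where all regions gave 62.1%. Of the 5, the region 10.9 kb before the start is the only one outside the ATF3 window. That window had 1 and 4 such regions, so BATF3 and ATF3 are not separate here. An intron region 8.23 kb from the start (chr1:212691503-212691773) had 11 and 12 tags in the p42 lists, 5 in p30 cells after tunicamycin and no peak elsewhere. A region 10.9 kb before the start (chr1:212710577-212710950) had 10 and 5 tags in p42 and EV cells and no p30 peak in DMSO, and 12, 5 and 6 after tunicamycin. The p42 values stood above the others in both. The region 43.0 kb beyond the start, toward ATF3 (chr1:212656691-212657053), lost rank with tunicamycin in all 3 lines, from percentile 75 to 21.2 in p42, 61.1 to 50.3 in p30 and 51.1 to 32.5 in EV cells, with 15, 11 and 9 tags before and 6, 9 and 7 after. Further toward ATF3, 61 kb from the start (chr1:212638766-212638962), tags were 15, 17 and 18 in DMSO and 13, 17 and 20 after tunicamycin, lowest in p42 cells. The strongest region outside promoters (chr1:212727695-212728221, over an exon of NSL1) had the most tags in p30 cells under each treatment, with 34, 42 and 29 tags in DMSO and 31, 41 and 35 after tunicamycin.

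ATF2 and ATF7 are the longest genes of the group. In the ATF2 window the largest difference lay 120 kb from the start, beyond the end of the gene (chr2:175048387-175048596), with 19, 9 and 6 tags in DMSO and 12, 9 and 6 after tunicamycin. The order p42, p30, EV held in both treatments. All 9 ATF2 regions with a peak in both p42 lists ranked lower after tunicamycin, the promoter region by -0.0146 points only. Over all regions 103564 of 169558 ranked lower there, and over the members 62 of 87. The median difference was -6.33 points at ATF2 and -2.94 points over all regions. Before the gene, a region at 19.2 kb (chr2:175187424-175187714) had 17, 14 and 11 tags in DMSO and 12, 14 and 9 after tunicamycin, and the strongest one outside promoters, at 35.5 kb (chr2:175203713-175203939), had 36, 29 and 23 and then 28, 29 and 24. The intron region 13.6 kb from the start (chr2:175154673-175154846), with TGACTCA at its summit, had no peak in p42 cells and 5 and 7 tags in p30 and EV cells in DMSO and 6 and 5 after tunicamycin, close to the lowest summit that was called. In ATF7 the intron region with TGAGTCA 50.7 kb from the start (chr12:53575511-53575883) had 25, 13 and 14 tags in DMSO and 20, 9 and 14 after tunicamycin, with percentiles of 89.5, 68.8 and 73.3 in DMSO. The intron region 58.2 kb from the start (chr12:53568061-53568561) had the reverse order of p42 and p30 cells in DMSO, with 6, 10 and 7 tags and then 10, 12 and 9. Nearer to the start, at 24.7 kb (chr12:53601618-53601828), tags were 6, 5 and 6 in DMSO and 9, 7 and 7 after tunicamycin, higher in each line. The strongest one outside promoters in the p42 DMSO list, in the last part of the gene (chr12:53508511-53509004), had 41, 28 and 27 tags in DMSO. It had 36, 27 and 33 after tunicamycin. Both p42 values were the highest of their treatment, and that choice by the p42 DMSO list favours a high p42 value. The ATF7 window also holds PCBP2, MAP3K12, TARBP2 and ATP5MC2, and 1 of its regions with peaks in both p42 lists and no other (chr12:53500225-53500354, 19 and 18 tags) lies at the promoters of MAP3K12 and TARBP2.

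The BATF2 window holds 6 other protein-coding genes. A region 4.55 kb before the start (chr11:65001531-65001656) had 8 and 9 tags in the p42 lists and no peak elsewhere. One 10.0 kb before the start (chr11:65006916-65007144), with TGAATCA, had 6, 9 and 8 tags in DMSO and 7, 11 and 12 after tunicamycin. The region in MAJIN shown above (chr11:64970777-64971012) had no peak in p42 cells, 5 and 6 tags in p30 and EV cells in DMSO and 6 and 10 after tunicamycin. The strongest one outside promoters in the p42 DMSO list lay 6.47 kb before the start (chr11:65003420-65003588). It had 11, 15 and 10 tags in DMSO, no peak in p42 cells after tunicamycin, and 8 and 9 tags in p30 and EV cells. At the promoter 6.20 kb inside the gene (chr11:64990669-64990852) tags were 11, 7 and 8 in DMSO and 5, 6 and 5 after tunicamycin, lower in each line after treatment.

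Sorting the member regions by list gave 69 with a peak in all 6 (46.6%, all regions 32.2%), 41 with a peak in 1 (27.7%, all 34.2%), 6 with peaks in both p42 lists and no other (4.05%, all 4.58%), and 3 with peaks in the 4 p30 and EV lists and in no p42 list (2.03%, all 0.802%). These 3, at ATF2 +13.6 kb, BATF +39.8 kb and BATF2 +26.1 kb, all hold the AP-1 consensus, which 29.5% of the 2849 such regions in the whole series hold (95% Wilson interval 27.8 to 31.2%). Of the 6, none holds it (all 8.98% of 16276). Of the regions called in DMSO for p30 but not for p42 cells, 6 of 10 at the members (60%, interval 31.3 to 83.2%) and 16.3% of all held the AP-1 consensus. Of those called for p42 but not for p30 cells, 3 of 35 (8.57%, 2.96 to 22.4%) and 10.1% of all did. The sorting by motif was made after these patterns had been seen, and nothing was tested. The 6 AP-1 regions called for p30 but not for p42 cells had 5 to 13 tags in p30 cells in DMSO. The 250 bases before the RefSeq starts found for ATF3, ATF7, BATF, BATF2 and JDP2 (GRCh38.p14) held none of the 5 sequences searched. Of 35116 RefSeq promoters, 6.57% hold AP-1 and 1.65% the CRE. The starts of ATF2 and BATF3 and those at the strongest promoter regions of ATF3 and BATF2 were not searched in this way.

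**Figure D4:**
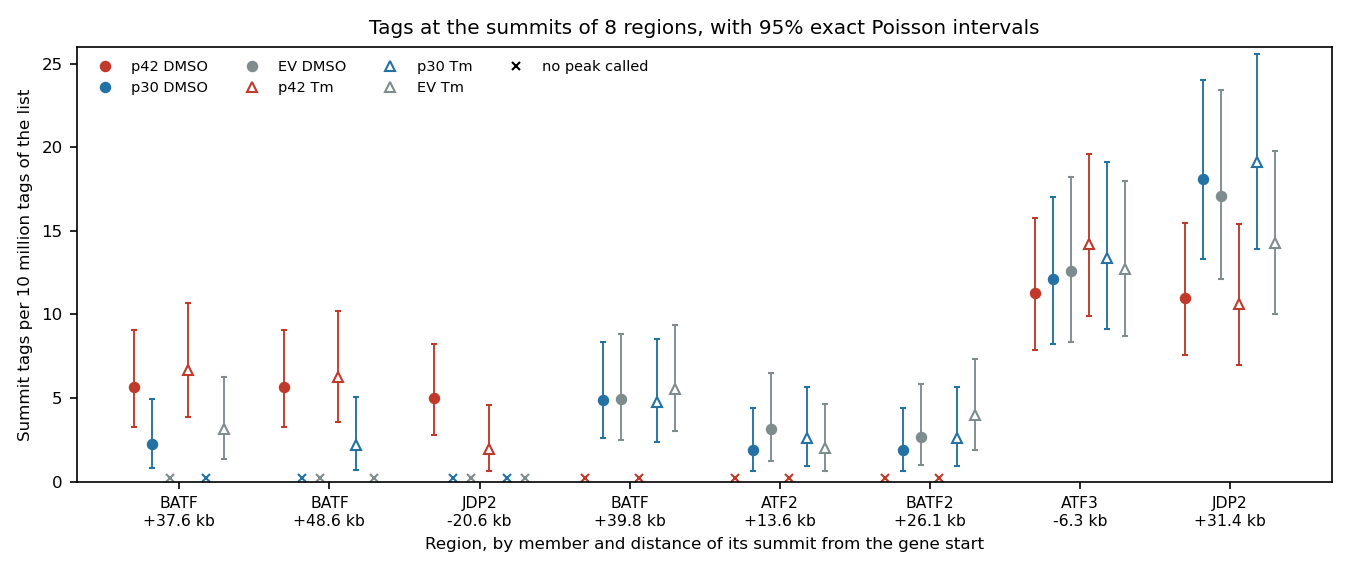
Tags at the summit per 10000000 tags of the list (y axis) in 8 regions (x axis, by gene and distance from its start), with 95% exact Poisson intervals for counting error, filled circles for DMSO, open triangles for tunicamycin, and crosses where no peak was called. The first 3 regions have peaks in both p42 lists and in at most 2 others, the next 3 have none in p42 lists, and the intervals of the lists with a peak overlap in every region.

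Set against EV cells, p42 and p30 cells gave different counts. For p42 against EV in DMSO, 33 member regions had a peak in p42 only and 12 in EV only, 73.3% of p42 (interval 59 to 84%), and 76.0% over all regions. With equal list sizes the share was 54.3%, and 51.7% over all regions. For p30 against EV in DMSO, 12 were of p30 and 16 of EV, 42.9% (26.5 to 60.9%), and 62.1% over all regions. This member share was the lower of the pair with equal list sizes too, 33.3% against 50.8%, and with only peaks of −log10 q of at least 5, 53.8% against 62.3%, but it stood above 50% there and, at 55.6%, in windows of 100 kb. The ranks of shared regions differed by a median of 4.07 points for p42 against EV (all 6) and 0.208 points for p30 against EV (all 1.73). With equal list sizes the medians were 0.951 (all 0.0101) and -0.606 (all 0.184). These comparisons share the EV list.

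After tunicamycin, the counts of p42 and p30 cells lay nearer to each other. There were 19 regions with a peak in p42 only and 14 in p30 only, 57.6% of p42 (40.8 to 72.8%), and 63.4% over all regions. With equal list sizes the shares were 44.1 and 48.5%. JDP2 had 7 and 1, while ATF3 had 1 and 3 and BATF3 had 1 and 4. Treatment itself left p42 cells with 7 gained and 26 lost member regions, 21.2% gained (10.7 to 37.8%), and 29.6% over all regions. By window, p42 cells gained 0 and lost 6 at BATF, 1 and 8 at JDP2, 1 and 8 at ATF7, and 1 and 4 at ATF3. The counts were 1 and 2 at BATF3, 2 and 2 at ATF2, and 2 and 1 at BATF2. A region in a pair of windows counts in each, and BATF and JDP2 share lost regions. In p30 cells 15 were gained and 14 lost, 51.7% (34.4 to 68.6%), and 36.0% over all regions. They gained 6 and lost 1 at BATF3 and 3 and 0 at ATF3, windows that share gained regions. The counts were 1 and 0 at BATF2, 3 and 5 at ATF7, 2 and 4 at BATF, 2 and 4 at JDP2, and 1 and 2 at ATF2. In EV cells 14 were gained and 12 lost, 53.8% (35.5 to 71.2%), and 53.7% over all regions. Estimated depth went with treatment from 29980000 to 25440000 tags in p42, 26530000 to 23080000 in p30 and 22250000 to 25130000 in EV cells, and its part was not tested. No member region had peaks in all 3 lists of one treatment and in none of the other.

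Beside the members, windows of FOS, FOSB, FOSL1 and FOSL2 held 142 regions and those of JUN, JUNB and JUND 98. For p42 against p30 in DMSO the one-list-only counts were 25 and 8 at the FOS family (75.8% of p42, 59 to 87.2%) and 16 and 8 at the JUN family (66.7%, 46.7 to 82%), both with intervals that hold the member value of 77.8%. For p30 against EV they were 11 and 10 at the FOS family and 15 and 8 at the JUN family, where the members had 12 and 16, and the differences between families were not tested. All 18 other AP-1 and related bZIP genes, such as ATF4, CREB1 and the MAF genes, and IRF4 and IRF8, the partners of BATF, had an open promoter in all 6 lists. In DMSO, 4 of these 18 genes, 1 of IRF4 and IRF8 and 1 of the 7 members had a promoter region called for p42 but not for p30 cells, and 3, 0 and 0 had the reverse.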

How the data were processed

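ATAC-seq peaks of KO-52 cells were analysed from 6 pooled lists, 1 per condition, that the authors made from 12 libraries. The reads were trimmed with Trim Galore 0.6.6, aligned to hg38 with Bowtie2 2.4.4, freed of duplicates with Picard, and peaks were called with MACS2. The study describes ChIP-seq and ATAC-seq processing together, and a shift of reads for the Tn5 cut is not given in the sources used here. The deposited columns hold the fold enrichment of the summit over local background, a ratio, and its −log10 p and −log10 q, and a display score by the authors that was not used.

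Fold and p were solved for whole summit tags and the background (100% of peaks), and depth was estimated from the lowest background with a genome of 2700000000 bp. Peaks overlapping or adjoining over all 6 lists were joined on chromosomes 1 to 22, X and Y. All peak ends lay within the hg38 chromosome lengths. Shares have 95% Wilson intervals for the counting of regions only. Regions were named for each window by rule: the strongest promoter region, the largest rank difference between p42 and p30 cells in DMSO in each direction, the strongest regions of both p42 lists only and of both p30 lists without p42, the largest change with tunicamycin, and the strongest outside promoters. The last was chosen by its percentile in the p42 DMSO list alone. Others named (at ATF3 6.3 and 1.9 kb, at BATF 20.5, 33.5 and 48.6 kb and the smaller promoter region, at JDP2 the weakest p42 region, and at BATF3 8.23 and 10.9 kb from the start) were chosen after their values were seen. The members, gene lists and comparisons were chosen with earlier results of these data known. A marker gene and a JDP2 region are not reported here. Scripts were tested on simulated data. Python 3.11.15, numpy 2.4.6, scipy 1.17.1, pandas 2.3.3 and matplotlib 3.10.9 were used.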

Additional observations from a re-analysis of the deposited data

How the results depend on the processing

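The alternatives were a −log10 q of at least 5, equal list sizes, a threshold scaled to the shallowest list, windows of 25 and 100 kb, a 50% overlap, ranks by fold, and promoters of 500 and 2000 bp. Of 87 recomputed values 86 stayed within the spread allowed, and the exception was the share of p42 against EV in DMSO, which moved from 73.3% to 54.3% with equal list sizes (25 and 21 regions), where that over all regions moved from 76.0% to 51.7%. The cause was not tested. Counts of one-list-only regions moved by over 1.5 times at −log10 q of at least 5, as for p42 against p30 in DMSO (23 and 6 for 35 and 10), and in windows of 100 kb (50 and 20). The median rank difference of p30 against EV, 0.208, was -0.606 with equal list sizes and -0.154 with the scaled threshold, and that of tunicamycin in EV cells, 0.359, was -0.115 with equal list sizes. For shares the spread allowed was the Wilson interval, and for rank medians a shift below 5 points. None of these medians exceeded 4.07 in size as deposited, so each could shrink to nothing and pass. With equal list sizes the median went from 4.07 to 0.951 for p42 against EV and from 3.03 to 1.26 for p42 against p30 in DMSO. For p42 against p30 after tunicamycin it went from 1.69 to 0.0284. Over all regions these went from 6 to 0.0101, 3.16 to -0.499 and 2.21 to -0.327. All 7 promoters stayed called in all 6 lists under every promoter setting. No paired analysis was possible because the lists pool both replicates of a condition. Depth limits what a missing peak means, and duplicate removal caps the tallest summits.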
